A study of Mus musculus with 14 samples.

Results

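The genes around Cort, the gene deleted in this study, were examined here in the brains of Cort+/+ and Cort-/- mice after stroke. Cort encodes cortistatin, a neuropeptide related to somatostatin, and lies on the reverse strand of mouse chromosome 4 at chr4:149209491-149211266 (GRCm39). The 54 genes were taken by symbol from the 46904 genes of the expression table and exclude Cort itself. Of these, 28 lie on the centromeric side of Cort and 26 on the distal side, and the farthest, Dhrs3, is 4.55 Mb away. Positions were taken from the GENCODE annotation of GRCm39, and all 54 fell on chromosome 4.

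The Cort-/- line is a constitutive knockout kept on a C57BL/6J background, so the gene was absent from every cell and throughout life, and Cort+/+ animals were the wild-type (WT) controls. Every mouse, 12 weeks old, underwent a mild middle cerebral artery occlusion (MCAO), in which a filament blocked the artery for 20 min before reperfusion, and brains were taken 48 h later. Poly(A) RNA was sequenced from the injured hemisphere (MCAO) and from the opposite, contralateral hemisphere (CL). There were 3 Cort+/+ CL, 3 Cort-/- CL, 3 Cort+/+ MCAO and 5 Cort-/- MCAO samples. The Cort+/+ MCAO samples are numbered 2, 3 and 4, where the study's methods give 5 MCAO replicates. Those methods say that only clearly grouped replicates were kept where variability was large. No animal without surgery was analysed here, so CL tissue is the uninjured side of an operated brain.

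A targeted allele is usually built in embryonic stem cells and then crossed into the strain of choice. Genes close to the target are inherited together with it, and the DNA that flanks a targeted allele can therefore remain that of the stem cell strain after many crosses. Sequence differences between strains, a selection cassette left in the locus and the loss of the protein itself are known routes by which neighbouring genes come to differ between a knockout and its controls. The strain of the stem cells, the build of the allele and the number of crosses are not given in the sources used here, and with 1 line these routes cannot be told apart.

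Cort was close to 0 in every Cort-/- library. Its level, in reads scaled by gene length and library size (RPKM), was 2.61, 5.68 and 5.50 in Cort+/+ CL and 0, 0.0444 and 0 in Cort-/- CL. In MCAO it was 4.44, 3.36 and 3.86 in Cort+/+ and 0, 0.136, 0.0559, 0 and 0.0385 in Cort-/-. By the level of Cort the genotype labels held in all 14 libraries, with at most 4 reads of Cort in a Cort-/- library and at least 64 in a Cort+/+ library. The level of Cort does not test the flanking DNA of the Cort+/+ animals.

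The libraries held between 25989759 and 43032441 gene-assigned reads. The summed level of 5 neuronal markers was 1492 to 2072 RPKM across all samples, and that of 3 liver genes used as a negative control was at most 0.579 RPKM. A 6-gene injury response sum was 14.1 to 68.4 RPKM in MCAO. In CL it was 3.80 to 5.28 RPKM except in Cort+/+ CL 1, at 7.96, and Cort-/- CL 2, at 9.17, and these 2 libraries also had the highest CL levels of Gfap, the intermediate filament of reactive astrocytes (132 and 110 RPKM). Each comparison was repeated without them. Because whole hemispheres were sequenced, fewer cells of a type and less RNA per cell cannot be told apart. The study's methods call the replicates independent, but neither they nor the labels say whether the 2 hemispheres of 1 mouse are both present. The p-values of comparisons that use both hemispheres take all 14 samples as independent.

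Differences are given below as Cort-/- minus Cort+/+ on the scale of log2(RPKM + 0.1), which understates the change of low genes, with the standard error (SE) from 1 limma fit over all samples. A gene was called where its Benjamini-Hochberg adjusted p over all 46102 genes tested was under 0.05. All 54 genes entered the test, and 40 of them had a mean of at least 1 RPKM.

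In CL, 4 of the 54 genes were called, all lower in Cort-/-, where 7 of all 46102 genes (0.0152%) were called in either direction and 0.013% were called as lower. In MCAO, 4 were again called and lower, against 8 of all genes (0.0174%), with 0.013% lower. They were the same 4 in both hemispheres: Fbxo44, Tnfrsf8, Zfp982 and Zfp984. Averaging the genotype difference over the 2 hemispheres brought the number to 8, with 5 lower and 3 higher, against 31 of all genes (0.0672%), of which 0.026% were lower and 0.0412% higher. The additional genes were Miip, which was lower, and Angptl7, Masp2 and Clcn6, which were higher. Limma-voom on reads recovered from the RPKM values called the same 4 with Masp2 and Clcn6, both higher, in CL (6 genes, where 0.0325% of all genes were called) and with Miip in MCAO (5 genes, 0.026%). Without Cort+/+ MCAO 3, the CL count by limma was 7, with Angptl7, Masp2 and Clcn6 added, where 16 of all genes were called. The MCAO count was then 6 (40 of all genes) and that of the mean 9 (44 of all genes). Among the Cort+/+ MCAO libraries, number 3 lay nearest to the Cort-/- values for each of the 8 genes except Zfp984. The reason was not tested.

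At an unadjusted p under 0.05, 13 of the 54 genes passed in CL (3.91% of all genes), 14 in MCAO (3.82%) and 19 in the mean of both hemispheres (4.5%). The median difference in the mean of both hemispheres was close to 0 for the 54 genes and for all genes, since members moved in both directions: of the 19, 9 were higher (1.95% of all genes) and 10 lower (2.55%). Cort+/+ and Cort-/- values did not overlap for 20 of the 54 genes in CL (6.25% of all genes) and for 11 in MCAO (2.42%). For 10 of the 54 they did not overlap in either hemisphere and differed in the same direction (0.206% of all genes): Cenps, Masp2, Angptl7, Agtrap and Clcn6 were above the Cort+/+ range, and Fbxo44, Miip, Tnfrsf8, Zfp982 and Zfp984 below it.

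**Figure D1:**
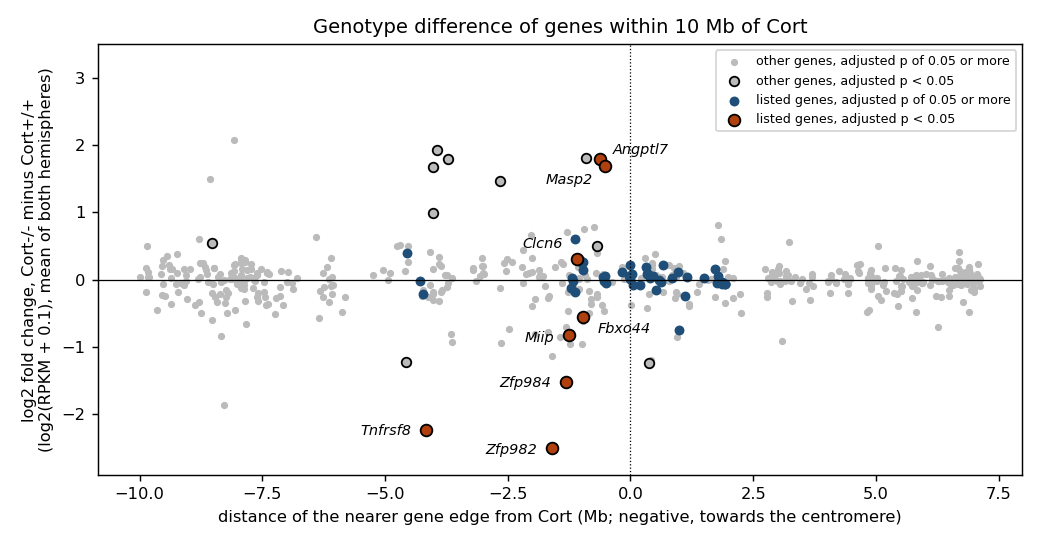
Genotype difference (log2, Cort-/- minus Cort+/+, mean of both hemispheres) of genes tested around Cort, against the distance of the nearer gene edge from Cort in Mb, with negative distances towards the centromere. The 8 called genes of the 54 (orange) all lie on the centromeric side, with Tnfrsf8 and Zfp982 below -2, and none of the distal genes of the 54 (blue) is called.

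The called genes were on one side of Cort. In the mean of both hemispheres, 8 of the 28 centromeric genes and 0 of the 26 distal genes were called (0.0672% of all genes). An unadjusted p under 0.05 was found for 14 and 5 respectively (4.5% of all genes). With limma-voom, members called were again 8 (0.0629% of all genes). The median size of the difference, without its sign, was 0.23 on the log2 scale for the centromeric genes, 0.07 for the distal genes and 0.07 for all genes tested. The difference between the sides was not tested.

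Zinc finger proteins of the KRAB type bind DNA and silence transposable elements, and mouse chromosome 4 carries a large, fast-evolving cluster of their genes. Zfp982 and Zfp984 belong to this cluster, at chr4:147545583-147601280 (forward strand, 1.61 Mb from Cort) and chr4:147838429-147894327 (reverse strand, 1.32 Mb). Zfp982 measured 0.611, 0.777 and 0.432 RPKM in Cort+/+ CL and 0, 0.0202 and 0 in Cort-/- CL. In MCAO it measured 0.561, 0.412 and 0.586 in Cort+/+ and 0.0309, 0.0309, 0.0254, 0 and 0.0351 in Cort-/-. No Cort-/- library came near the lowest Cort+/+ library, and 5 of the 8 Cort-/- libraries held at most 1 read. The difference was -2.70 (SE 0.23, adjusted p = 0.000434) in CL and -2.31 (SE 0.21, adjusted p = 0.000739) in MCAO. In summed reads scaled by library size, Zfp982 was 89.8 times higher in Cort+/+ CL, from 97 reads against 1 (95% interval 15.7 to 3582). In MCAO it was 21.0 times higher, from 82 reads against 7 (9.76 to 53.96). These intervals cover counting error only.

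Zfp984 was lower but not lost. It measured 0.994, 0.765 and 1.02 RPKM in Cort+/+ CL and 0.279, 0.268 and 0.233 in Cort-/- CL. The MCAO values were 0.793, 0.791 and 0.754 in Cort+/+ and 0.197, 0.198, 0.208, 0.206 and 0.215 in Cort-/-. The genotypes were separated in both hemispheres by a wide gap, with differences of -1.50 (SE 0.16, adjusted p = 0.00349) in CL and -1.53 (SE 0.14, adjusted p = 0.00119) in MCAO. Assignment of reads within this family is uncertain. Of the 31-base words of the Zfp984 transcript, 75.7% occur in other genes, most of them in Zfp268. For Zfp982 the share is 18.2%, most often in Zfp990. The Zfp982 transcript searched has 4647 bases, whereas the RPKM values imply a counted length of 1488. Its share therefore need not describe the reads counted. Gm20707 overlaps Zfp984 on the same strand over 27522 bases and measured -0.71 (adjusted p = 0.211). The third member of this class, Casz1, a zinc finger transcription factor of neural and heart development that lies outside the cluster, measured 0.11 (95% interval -0.12 to 0.33).

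The upstream DNA of 3 of the 4 genes that were lower in both hemispheres is shown because these promoters lie on the chromosome that carries the targeted allele. That of Fbxo44 is not printed, since annotated UTRs run through its window. The windows are the reference sequence of GRCm39 up to 250 bases before the start of the canonical transcript, cut short where an annotated UTR begins, 5′ to 3′ on the strand of the gene, with CG dinucleotides in capitals. They are Tnfrsf8 at chr4:145041735-145041967 (reverse strand), Zfp982 at chr4:147591807-147591995 (forward strand) and Zfp984 at chr4:147894328-147894577 (reverse strand). The Zfp982 window lies inside the gene interval given above, since the canonical transcript starts within that interval, and so precedes that transcript only.
Tnfrsf8: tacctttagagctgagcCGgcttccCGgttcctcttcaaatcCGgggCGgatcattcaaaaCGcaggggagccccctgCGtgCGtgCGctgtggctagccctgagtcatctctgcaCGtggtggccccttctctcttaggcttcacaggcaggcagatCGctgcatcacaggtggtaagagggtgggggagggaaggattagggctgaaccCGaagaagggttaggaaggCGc
Zfp982: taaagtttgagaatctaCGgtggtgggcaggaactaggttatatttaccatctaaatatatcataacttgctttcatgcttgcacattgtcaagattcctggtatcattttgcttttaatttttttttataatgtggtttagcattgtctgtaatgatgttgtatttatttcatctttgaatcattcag
Zfp984: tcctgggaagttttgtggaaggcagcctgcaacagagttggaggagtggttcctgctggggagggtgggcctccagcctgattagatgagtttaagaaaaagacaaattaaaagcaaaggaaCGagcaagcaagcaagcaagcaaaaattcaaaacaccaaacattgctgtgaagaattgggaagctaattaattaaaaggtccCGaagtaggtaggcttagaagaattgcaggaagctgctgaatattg
CG dinucleotides are the sites of DNA methylation, and promoters rich in them tend to be broadly active. In the full 250 bases, Zfp982 had 1 CG and Zfp984 had 2, against a median of 8 over 21751 promoters of protein-coding genes and of 13 over the 54 genes. At least as many were found in 92.6% and 83.5% of all promoters respectively. Tnfrsf8 had 12 (36.9% of promoters had at least as many) and Fbxo44 had 17 (22.6%). The 4 windows therefore held no common CG density, and no sequence of the Cort-/- animals was examined.

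Tnfrsf8 encodes CD30, a receptor of the tumour necrosis factor (TNF) family carried by activated lymphocytes. It lies at chr4:144993707-145041734 (reverse strand), 4.17 Mb from Cort. Its level was 0.670, 0.483 and 0.604 RPKM in Cort+/+ CL and 0.0255, 0.0440 and 0.0271 in Cort-/- CL. In MCAO it was 0.700, 0.402 and 0.700 in Cort+/+ and 0.0135, 0.0944, 0.0776, 0.0421 and 0.0917 in Cort-/-. Every Cort-/- library was below every Cort+/+ library in both hemispheres. The difference was -2.37 (SE 0.27, adjusted p = 0.00484) in CL and -2.09 (SE 0.24, adjusted p = 0.00552) in MCAO, and summed reads were 18.3 times (95% interval 10.003 to 37.1) and 9.46 times (6.75 to 13.6) higher in Cort+/+. The lymphocyte markers measured beside it were near 0 throughout: the T cell gene Cd3e was at most 0.0917 RPKM and the B cell gene Ms4a1 at most 0.0523 RPKM in any library. Both belong to a list of 7 infiltrating leukocyte markers, none of which was called by limma between genotypes, with 4 of the 7 higher in CL and 5 in MCAO. Its sum, made up mainly of the neutrophil genes S100a8 and S100a9, was 2.39 to 4.11 RPKM in Cort+/+ CL and 4.25 to 8.74 in Cort-/- CL, and 2.76 to 4.83 and 4.11 to 14.7 in MCAO. The part of these cells in the level of Tnfrsf8 was not tested. None of the transcript's 31-base words occurs in another gene.

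The other 2 TNF receptor genes of the region did not follow it. Tnfrsf1b, the TNF receptor 2 gene, lies next to Tnfrsf8 and measured -0.22 in the mean of both hemispheres (adjusted p = 1.00). Tnfrsf9, the co-stimulatory receptor CD137, lies on the distal side and measured 0.06.

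**Figure D2:**
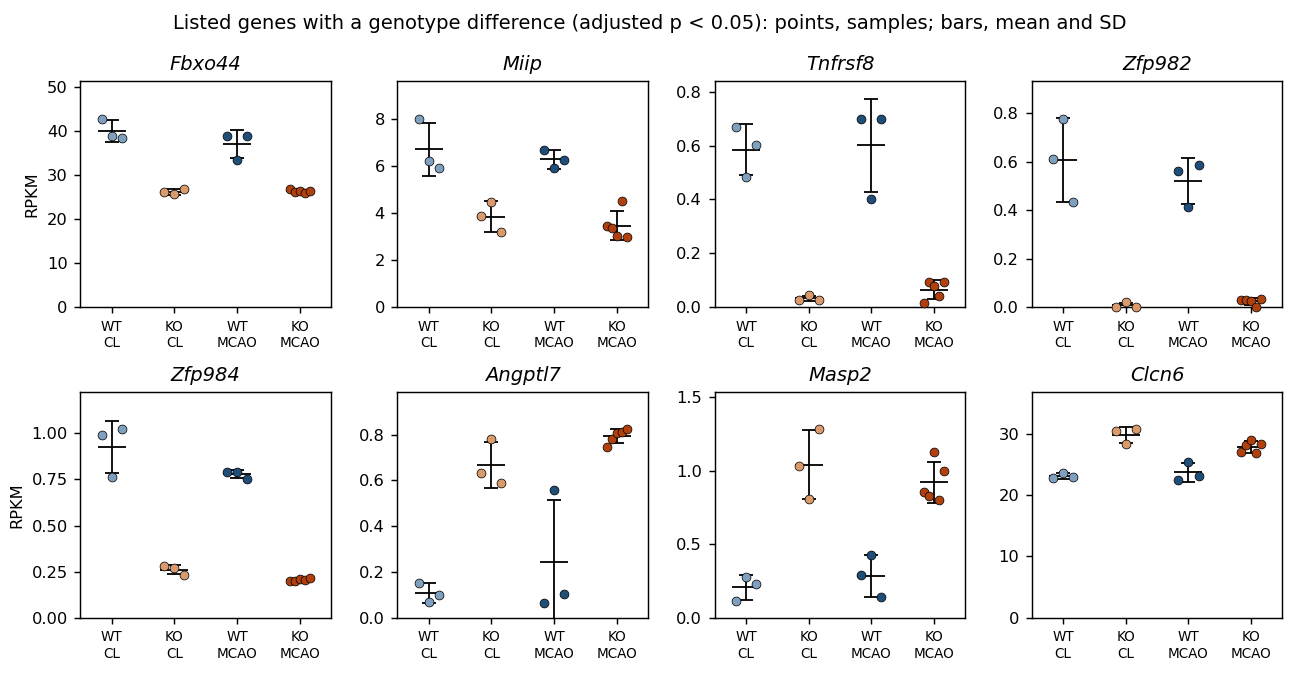
Levels in RPKM of the 8 called genes in each of the 14 libraries, by genotype (WT, Cort+/+; KO, Cort-/-) and hemisphere, with bars for the mean and SD cut off at 0. Fbxo44, Tnfrsf8, Zfp982, Zfp984 and Miip are lower in Cort-/- in both hemispheres and Angptl7, Masp2 and Clcn6 higher, with Cort+/+ MCAO 3 high for Angptl7.

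F-box proteins are the substrate-binding subunits of SCF ubiquitin ligases, and Fbxo2, Fbxo6 and Fbxo44 sit side by side about 1 Mb from Cort. Fbxo44 (chr4:148236949-148245002, reverse strand) was the most abundant of the genes called in CL. Its level was 42.7, 38.7 and 38.4 RPKM in Cort+/+ CL and 26.0, 25.6 and 26.7 in Cort-/- CL. The MCAO values were 38.9, 33.4 and 38.9 in Cort+/+ and 26.8, 26.0, 26.3, 26.0 and 26.3 in Cort-/-. The Cort-/- libraries of both hemispheres stayed within 25.6 and 26.8 RPKM. Fbxo44 differed by -0.61 (SE 0.06, adjusted p = 0.00118) in CL and -0.49 (SE 0.05, adjusted p = 0.00337) in MCAO.

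Its neighbours measured in the other direction without being called. Fbxo2, which recognises glycoproteins in neurons, measured 0.14 (SE 0.07) in the mean of both hemispheres and Fbxo6 0.26 (SE 0.09), both with an adjusted p of 1.00. Fbxo44 and Fbxo2 are transcribed in opposite directions from canonical starts 333 bases apart, and their full gene intervals overlap over 410 bases. None of the 31-base words of the canonical Fbxo44 transcript occurs in another gene, Fbxo2 included. That transcript has 1835 bases, whereas the RPKM values imply a counted length of 2561, so the words do not cover every counted base.

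Miip, which encodes a protein that restrains cell migration and mitosis, lies at chr4:147945232-147953273 (reverse strand). It measured 8.03, 6.24 and 5.93 RPKM in Cort+/+ CL and 3.86, 4.49 and 3.19 in Cort-/- CL. The MCAO values were 6.71, 5.91 and 6.29 in Cort+/+ and 3.46, 3.38, 3.05, 4.50 and 2.96 in Cort-/-. The genotypes did not overlap in either hemisphere, but limma on log2 RPKM called neither difference on its own, with -0.79 in CL (adjusted p = 0.365) and -0.86 in MCAO (adjusted p = 0.126). The MCAO difference was called by limma-voom (adjusted p = 0.0341), and by limma without Cort-/- MCAO 4 (adjusted p = 0.0281). Over both hemispheres it was -0.82 (SE 0.11, adjusted p = 0.00869).

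Among the secreted factors, Masp2 encodes a serine protease that starts the lectin pathway of complement, and Angptl7 an angiopoietin-like glycoprotein. Masp2 (chr4:148686985-148700447, forward strand, 0.509 Mb from Cort) measured 0.111, 0.278 and 0.232 RPKM in Cort+/+ CL and 1.03, 0.810 and 1.28 in Cort-/- CL. In MCAO it measured 0.293, 0.425 and 0.140 in Cort+/+ and 0.854, 0.826, 1.12, 0.801 and 1.00 in Cort-/-. All Cort-/- libraries were above all Cort+/+ libraries. The difference over both hemispheres was 1.69 (SE 0.20, adjusted p = 0.00503). Neither hemisphere alone was called by limma on log2 RPKM (adjusted p = 0.0816 in CL and 0.202 in MCAO). CL was called by limma-voom (adjusted p = 0.00847), and by limma without Cort+/+ MCAO 3 or without Cort+/+ MCAO 4, and MCAO without Cort+/+ MCAO 3. Masp2 overlaps Tardbp on the opposite strand over 3609 bases, and 63.3% of the 31-base words of its transcript lie in other genes, all in Tardbp. The kit keeps strand, but the strand setting of the counting is not given in the sources used here, so reads in this overlap cannot be told apart. Tardbp, at a mean of 21.0 RPKM, measured -0.05.

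Angptl7 (chr4:148579639-148584923, reverse strand) lies wholly within Mtor, on the opposite strand. It measured 0.153, 0.0670 and 0.0994 RPKM in Cort+/+ CL and 0.632, 0.781 and 0.587 in Cort-/- CL. In MCAO it was 0.0645, 0.556 and 0.105 in Cort+/+ and 0.746, 0.779, 0.807, 0.810 and 0.822 in Cort-/-. Only Cort+/+ MCAO 3, with 49 reads, came near the Cort-/- libraries, which held 41 to 73 reads, while the other Cort+/+ libraries held 5 to 12. The difference over both hemispheres was 1.79 (SE 0.26, adjusted p = 0.0237), and neither hemisphere alone was called. This call was the least stable of the 8. It was lost in 11 of 14 fits that each left out 1 library, all but those without Cort+/+ CL 1, Cort+/+ MCAO 2 or Cort+/+ MCAO 3. It was also lost without Cort+/+ CL 1 and Cort-/- CL 2 together (adjusted p = 0.0954), the setting in which the other 7 genes were still called. Without Cort+/+ MCAO 3 both hemispheres were called (adjusted p = 0.00436 in CL and 0.00059 in MCAO, where the difference was 2.28). Mtor itself measured 0.04.

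Clcn6, a chloride and proton exchanger of late endosomes in neurons, was the highest expressed of the genes that rose and changed least. It lies at chr4:148088716-148123304 (reverse strand). Its level was 22.7, 23.6 and 23.0 RPKM in Cort+/+ CL and 30.4, 28.4 and 30.7 in Cort-/- CL. MCAO levels were 22.5, 25.4 and 23.1 in Cort+/+ and 27.0, 28.2, 29.0, 26.8 and 28.3 in Cort-/-. The genotypes did not overlap in either hemisphere, and the difference over both was 0.30 (SE 0.04, adjusted p = 0.00514). In CL it was 0.37 (adjusted p = 0.0593) by limma on log2 RPKM. It was called there by limma-voom (adjusted p = 0.00847), with a pseudocount of 1 (0.048), with a minimum mean of 0.5 RPKM (0.0429), and without Cort-/- CL 2 or Cort+/+ MCAO 3. In MCAO it was 0.24 (adjusted p = 0.345).

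**Figure D3:**
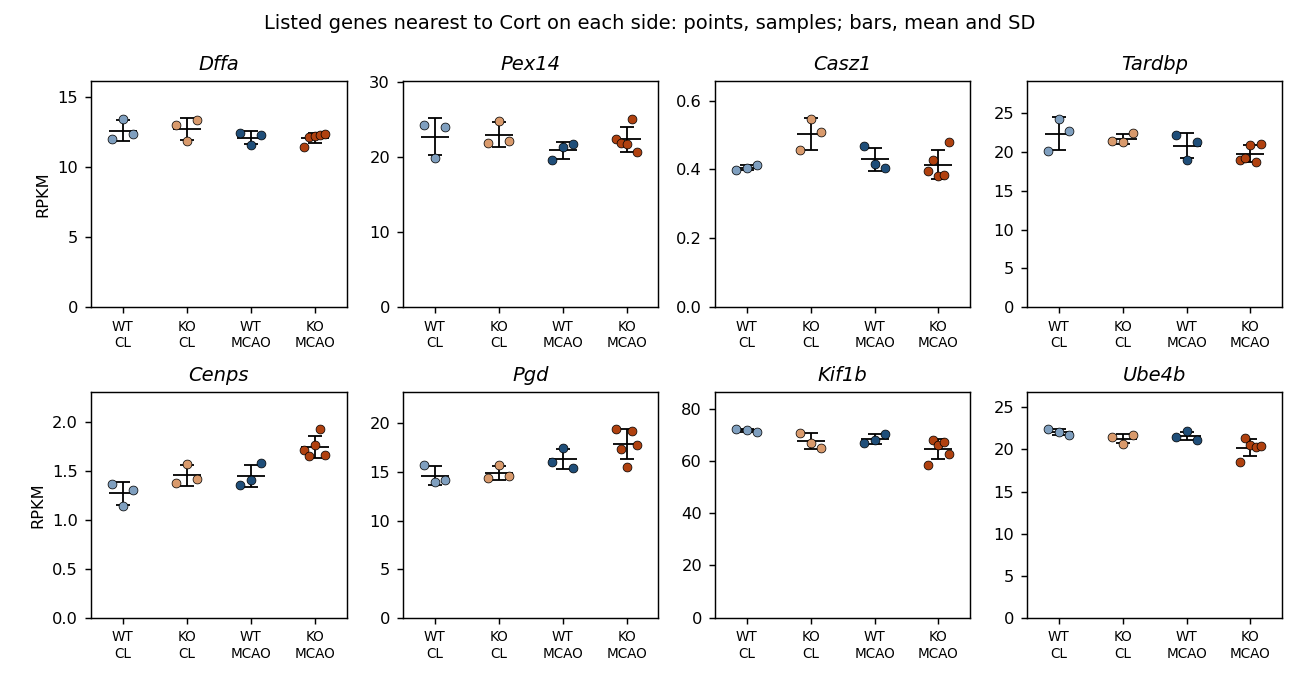
Levels in RPKM of the 8 genes of the 54 nearest to Cort, 4 on each side, in each library by genotype (WT, Cort+/+; KO, Cort-/-) and hemisphere, with bars for the mean and SD. Of these genes only Cenps has groups that do not overlap in both hemispheres, and its Cort-/- values are the higher ones.

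None of the 8 genes of the 54 that lie nearest to Cort, 4 on each side, was called. Cenps, a subunit of the centromere and of the Fanconi anaemia DNA repair complex, starts upstream of Cort on the same strand and ends 52 bases from it. It measured 1.36, 1.14 and 1.31 RPKM in Cort+/+ CL and 1.37, 1.57 and 1.42 in Cort-/- CL. In MCAO it measured 1.36, 1.41 and 1.58 in Cort+/+ and 1.71, 1.65, 1.76, 1.92 and 1.67 in Cort-/-. The lowest Cort-/- library was above the highest Cort+/+ library in both hemispheres, by a narrow margin in CL. The difference over both was 0.22 (SE 0.07, 95% interval 0.07 to 0.37), with an adjusted p of 1.00.

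Dffa, which encodes the inhibitor of the apoptotic DNase, lies 4384 bases from Cort on the other side. It measured 12.0, 13.5 and 12.4 RPKM in Cort+/+ CL and 13.0, 11.9 and 13.4 in Cort-/- CL. In MCAO it measured 12.5, 11.6 and 12.3 in Cort+/+ and 11.5, 12.2, 12.3, 12.3 and 12.4 in Cort-/-. The groups overlapped, and the difference was 0.01 with a 95% interval of -0.08 to 0.09. The peroxisomal import gene Pex14 measured 0.06, the pentose phosphate enzyme gene Pgd 0.08, the axonal motor gene Kif1b -0.09 and the ubiquitin ligase gene Ube4b -0.07, all with an adjusted p of 1.00. For Kif1b, Ube4b and Casz1 the genotypes were apart in CL and overlapped in MCAO.

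Of the 46 genes that were not called, 37 had a mean of at least 1 RPKM. Their differences ran from -0.25 to 0.39, and for 34 of the 37 the whole 95% interval lay within 0.5 of 0 on the log2 scale. None of the 6 genes of mitochondria, peroxisomes and membranes was called, among them Park7, the DJ-1 gene of oxidative stress defence, and Mfn2, the mitochondrial fusion gene (-0.13). The same was true of the 5 genes of axonal transport, synapse and transcription (-0.09 to 0.06), the 3 of RNA and protein quality control and the 6 of mTOR, PI3K and receptor signalling (-0.16 to 0.22). The largest class, 12 metabolic enzymes and transporters, held 1 called gene, Clcn6.

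A few uncalled genes with an unadjusted p under 0.05 are given because their values stood out once they were seen. Dhrs3, a retinaldehyde reductase and the member farthest from Cort, measured 4.45, 4.85 and 4.56 RPKM in Cort+/+ CL and 6.12, 5.99 and 6.62 in Cort-/- CL. In MCAO it measured 5.50, 6.09 and 4.80 in Cort+/+ and 7.59, 7.23, 6.78, 5.90 and 7.66 in Cort-/-. The genotypes were apart in CL and overlapped in MCAO, where Cort-/- MCAO 4 was below Cort+/+ MCAO 3. Over both hemispheres the difference was 0.39 (SE 0.07, adjusted p = 0.0974). Agtrap, which encodes a protein that internalises the angiotensin II type 1 receptor, measured 3.01, 3.12 and 2.47 RPKM in Cort+/+ CL and 3.46, 3.60 and 3.16 in Cort-/- CL, and 3.26, 3.69 and 3.16 against 4.67, 3.97, 3.95, 4.66 and 4.05 in MCAO. Its difference was 0.29 (SE 0.07, adjusted p = 0.527). The glycolytic enzyme gene Eno1 measured -0.25 and the fructose transporter gene Slc2a5 -0.75, both not called, and 68.1% of the 31-base words of Eno1 occur in other genes.

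The wider neighbourhood was read to see how far the pattern reached. Within 10 Mb of Cort, 541 other genes were tested, 279 centromeric and 262 between Cort and 10 Mb or the end of the chromosome on the distal side. In the mean of both hemispheres 18 of them were called (0.0672% of all genes), the 8 above and 10 more. Of the 18, 17 were centromeric. Of the 12 other called genes besides Cort, none lay on chromosome 4. The nearest of the 10 was Gm13071, a pseudogene 0.374 Mb away and the only called gene on the distal side. Padi2, a protein-citrullinating enzyme gene of oligodendrocytes and the farthest at 8.53 Mb, measured 0.54 (adjusted p = 0.0132).

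Zinc finger genes of the cluster also went the other way. Of the 18 genes within 10 Mb whose symbols start with Zfp, 4 were called in the mean of both hemispheres (0.0672% of all genes). Zfp982 and Zfp984 were lower and Zfp990 and Zfp992 higher in Cort-/-. Zfp990 was listed at 0 in all 3 Cort+/+ CL libraries and measured 0.391 ± 0.0476 RPKM (SD, n = 3) in Cort-/- CL. In MCAO it measured 0.0712 ± 0.123 RPKM in Cort+/+ and 0.342 ± 0.0845 in Cort-/-. Zfp992 measured 0.0756 ± 0.0240 RPKM in Cort+/+ CL and 0.421 ± 0.0614 in Cort-/- CL (n = 3 each). In MCAO it measured 0.116 ± 0.0958 RPKM in Cort+/+ and 0.426 ± 0.0656 in Cort-/-. Limma called neither gene in a single hemisphere (adjusted p in CL and MCAO: 0.114 and 0.392 for Zfp990, 0.199 and 0.222 for Zfp992). Without the CL libraries with a raised injury sum, the adjusted p was 0.0634 for Zfp990 and 0.0577 for Zfp992.

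**Figure D4:**
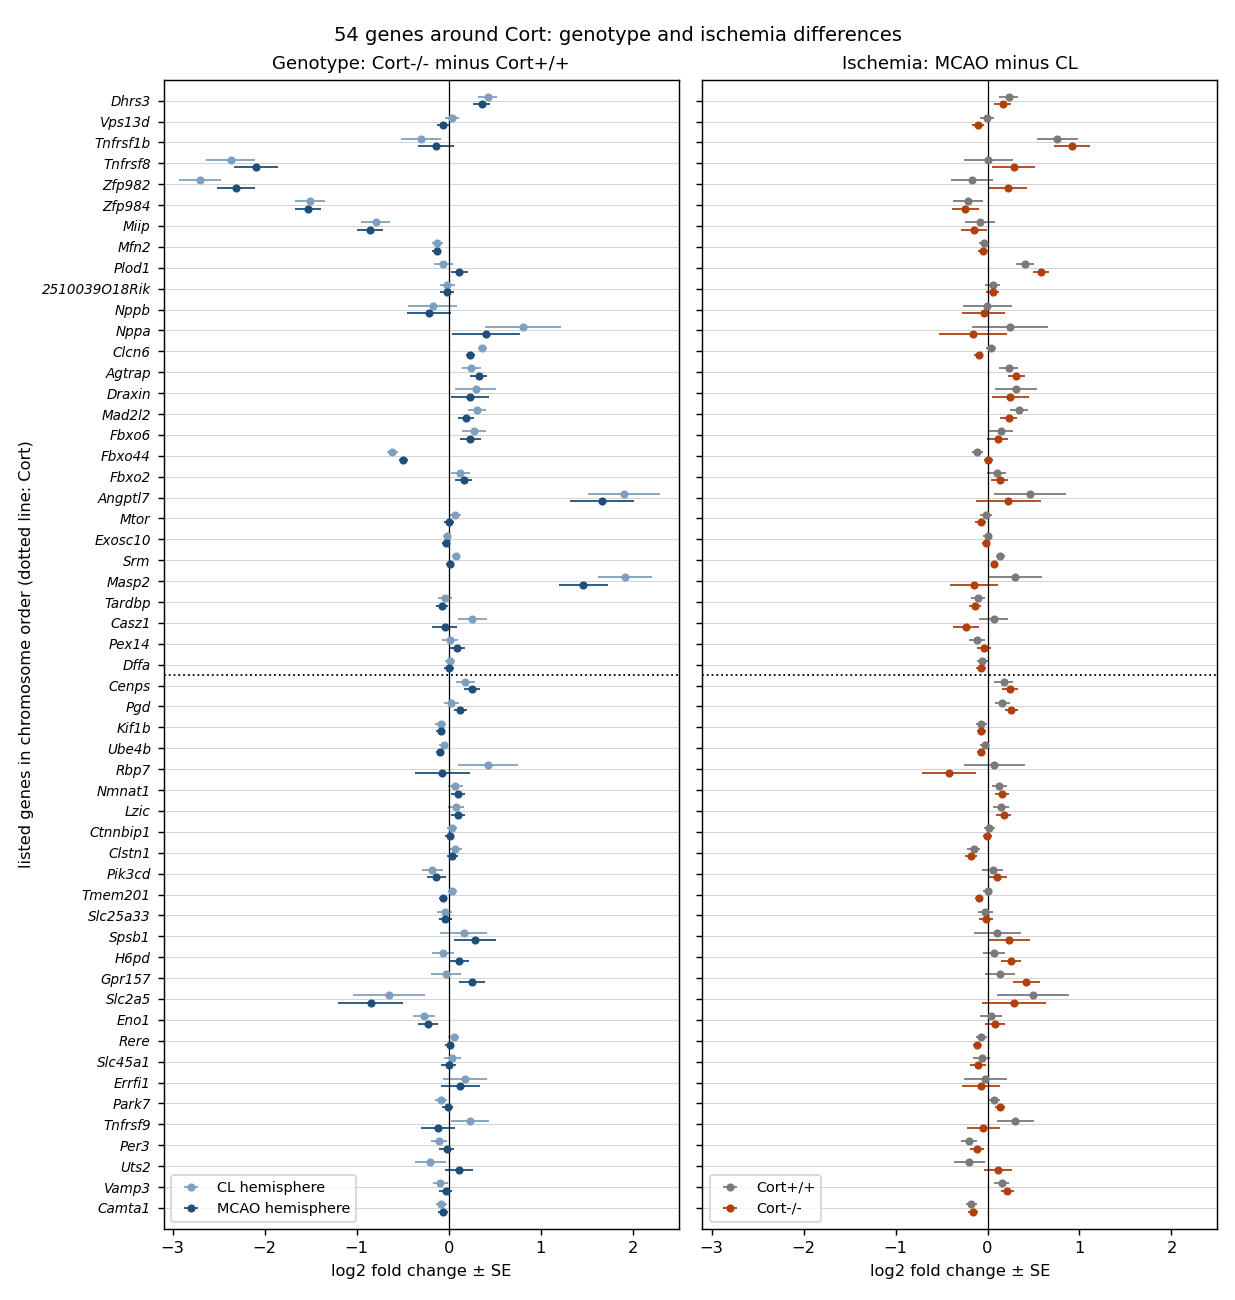
Differences on the log2(RPKM + 0.1) scale with SE for the 54 genes in chromosome order, Cort-/- minus Cort+/+ in each hemisphere on the left and MCAO minus CL in each genotype on the right, with a dotted line at Cort. The genotype differences beyond 1 belong to Tnfrsf8, Zfp982, Zfp984, Angptl7 and Masp2, whereas no ischemia difference reaches 1 and the highest is that of Tnfrsf1b.

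Few of the 54 genes were called for ischemia. Their share with an unadjusted p under 0.05 was above that of all genes in both genotypes. In Cort+/+ mice 0 of the 54 differed between MCAO and CL, where 5 of all genes (0.0108%) were called by limma, and limma-voom on recovered reads called none of them either, with 57 of all genes (0.124%) called. At an unadjusted p under 0.05, 8 of the 54 passed (7.87% of all genes). In Cort-/- mice 2 of the 54 were called, both higher in MCAO, against 792 of all genes (1.72%), with 1.34% higher, and 14 had an unadjusted p under 0.05 (12.7% of all genes). They were Plod1, a collagen lysyl hydroxylase, and Tnfrsf1b, and neither was called between genotypes. The share over all genes depends on the low genes tested. With a minimum mean of 0.5 RPKM, 2 of 44 members were called in Cort-/- against 1290 of 17476 genes, a lower share among members. At an unadjusted p under 0.05, 14 of the 44 passed against 4015 of 17476, still a higher share. The comparisons of MCAO with CL use the same samples as the genotype comparisons.

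Plod1 measured 5.58, 6.42 and 6.35 RPKM in Cort+/+ CL and 8.89, 8.49 and 7.11 in Cort+/+ MCAO. In Cort-/- it measured 5.79, 5.40 and 6.45 in CL and 9.78, 8.37, 8.07, 9.27 and 8.76 in MCAO. Every MCAO library was above every CL library in both genotypes. The MCAO minus CL difference was 0.58 in Cort-/- (SE 0.09, adjusted p = 0.0101, and 0.0528 without Cort-/- CL 1) and 0.41 in Cort+/+ (SE 0.10, adjusted p = 0.236).

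Tnfrsf1b measured 1.58, 1.40 and 0.997 RPKM in Cort+/+ CL and 2.65, 2.72 and 1.62 in Cort+/+ MCAO. In Cort-/- it measured 0.965, 1.06 and 1.11 in CL and 2.59, 1.91, 1.66, 2.52 and 1.78 in MCAO. MCAO was above CL in both genotypes without overlap. The MCAO minus CL difference was 0.92 in Cort-/- (SE 0.20, adjusted p = 0.0368) and 0.76 in Cort+/+ (SE 0.22, adjusted p = 0.328). The Cort-/- call held in 6 of 14 fits that each left out 1 library and was lost without any of the 3 Cort-/- CL libraries, without Cort-/- MCAO 1, 2, 4 or 5, or without Cort+/+ CL 2 (adjusted p = 0.0529 to 0.152). Without Cort+/+ CL 1 and Cort-/- CL 2 together, the adjusted p was 0.106. Summed levels of 6 microglia markers were 125 to 158 RPKM in CL and 172 to 359 in MCAO, with all 6 markers higher and 4 called in Cort-/-. The part of these cells in the difference of Tnfrsf1b was not tested.

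The genotype difference was also compared between the hemispheres. None of the 54 genes was called for this interaction by limma, where 1 of all genes (0.00217%) was called, 0 of the 54 had an unadjusted p under 0.05 against 3.31% of all genes, and limma-voom on recovered reads called 0 of all genes. A difference between hemispheres was thus not detected for any of the 8 called genes.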

How the data were processed

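Gene levels were deposited by the authors as RPKM, 1 column for each of the 14 samples, made with the reanalyzerGSE pipeline by alignment to GRCm39 and counting on GENCODE genes. No column belonged to another series. Library sizes and gene lengths were not given with the values. Whole reads were recovered from the steps between values, and libraries held 25989759 to 43032441 reads. Of the 495656 values above 0, 100% came back within 0.1 read of a whole number. The step of each gene was chosen to make its values whole, so this share is not a separate check. Samples were grouped by genotype and hemisphere from their titles.

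Genes above 0 in at least 2 libraries (46102 of 46904) entered 1 limma fit (version 3.58.1, R 4.3.3) on log2(RPKM + 0.1), with 4 groups, an intensity trend and Benjamini-Hochberg adjustment. The contrasts were Cort-/- against Cort+/+ in CL, in MCAO and in their mean, MCAO against CL in each genotype, and the interaction. Limma-voom on the recovered reads called 15, 12 and 29 genes in the 3 genotype contrasts. Read ratios have exact conditional intervals. Other pseudocounts, filters, scalings, sample sets and a replicate block were also run, and both the read recovery and the fit were tested on simulated data. Word sharing, overlaps and promoters were taken from a later GENCODE release on GRCm39. Words were those of the canonical transcript, which need not match the length that was counted.

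The 54 genes, the marker lists and the alternatives were chosen with earlier results of these data known. Values per sample were given, by rule, for genes called between genotypes by either fit, for the 4 nearest to Cort on each side and for genes called between hemispheres, and other genes outside the list were named if called within 10 Mb. Deviations of same-numbered hemispheres correlated at -0.24 to 0.03 in Cort-/- (3 pairs) and -0.14 to 0.32 in Cort+/+ (2 pairs), and samples were not paired. So few pairs cannot exclude shared mice. Differently numbered hemispheres reached 0.40 in Cort-/- (CL 3 with MCAO 5). Python 3.11.15, numpy 2.4.6, pandas 2.3.3, scipy 1.17.1 and matplotlib 3.10.9 were used.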

Additional observations from a re-analysis of the deposited data

Results flagged for a closer look

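In 6 of the 54 genes, 1 of the 5 Cort-/- MCAO samples lay far from the others of its group, by the gap to its nearest neighbour as a share of the group's range. Chance alone marks about 1 in 20 groups of continuous values. That rate does not hold for genes of a few reads, such as Zfp982, Rbp7 and Uts2. Groups of 3 were not examined. For Dffa and Tmem201 it was Cort-/- MCAO 1, the lowest of its group, at 11.5 and 11.1 RPKM. For Zfp982 it was Cort-/- MCAO 4, where the gene was listed at 0 RPKM while the other 4 held 1 or 2 reads. Rbp7, a retinol-binding protein gene, was at 0.232 RPKM in Cort-/- MCAO 4, Nppa, the atrial natriuretic peptide gene, at 0.831 RPKM in Cort-/- MCAO 3, and Uts2, the urotensin 2 gene, at 0.0485 RPKM in Cort-/- MCAO 5. These values rest on 6 reads for Rbp7, 19 for Nppa and 1 for Uts2.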

How the results depend on the processing

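Members called between genotypes in CL (4), MCAO (4) and the mean of both hemispheres (8) numbered 2, 1 and 5 with a minimum mean of 0.5 RPKM, under which Tnfrsf8, Zfp982 and Zfp984 were not tested. With only the groups compared in the fit there were 2 in CL and 2 in MCAO, and such a fit could not be had for the mean or the interaction. Leaving out each library in turn gave 4 to 7 in CL, 4 to 6 in MCAO and 7 to 9 in the mean. The 2 genes called for ischemia in Cort-/- became 1 with a pseudocount of 1, 0 with only the groups compared, 0 to 3 when each library was left out and 1 without Cort+/+ CL 1 and Cort-/- CL 2. Limma-voom with a minimum mean of 0.5 RPKM, chosen after seeing the data, gave 1 in MCAO, 5 in the mean and 4 for ischemia in Cort-/-, with Agtrap and Pgd added. Counts for ischemia in Cort+/+ and for the interaction were 0 in every fit run. Over all genes, calls ranged from 4 to 90 in CL, 4 to 40 in MCAO, 15 to 49 in the mean, 0 to 160 for ischemia in Cort+/+, 0 to 1366 in Cort-/- and 0 to 18 for the interaction, against 7, 8, 31, 5, 792 and 1.

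With a replicate block, 1 member was called in CL and 1 in MCAO (Zfp982 in each), 8 in the mean and 0 for ischemia in Cort-/-. The labels do not say whether equal numbers mark 1 mouse, and the block uses up degrees of freedom.

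Dffa, near 0 in the mean, ran from -0.0095 to 0.0333 when each library was left out, and Tardbp moved from -0.05 to 0.0032 when libraries were rescaled to TPM, which moved the median of all genes to 0.04. Of the values for single genes, 1033 kept their direction and side of the threshold, 61 lost a call, 16 gained one and 4 changed sign. The size of change of low genes moves with the pseudocount and the test: in the mean, Zfp982 ran from -4.75 to -0.62 and Tnfrsf8 from -3.71 to -0.60 over all fits, against -0.59 to -0.49 for the abundant Fbxo44.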
